A study of Mus musculus with 6 samples.

Results

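Transcripts of 31 genes for the synthesis of cholesterol and fatty acids were followed in mouse CD4 T cells labelled as regulatory T (Treg) cells. The genes were chosen by symbol, as the regulators of the SREBP transcription factors, the enzymes of the mevalonate and sterol pathway, a sterol carrier and the enzymes of fatty acid synthesis, and all 31 were found among the 24493 gene symbols of the expression table. The cells came from naive CD4 T cells, taken from spleen and driven towards the Treg fate in culture, and 3 wild-type (WT) libraries stood against 3 libraries of the Ifnar1-SA genotype. Ifnar1 is 1 of the receptor chains for type I interferon, and SA is known from the literature as a knock-in that puts alanine in place of a serine in the degradation signal of this chain. The sources used here do not give strain, age, sex, cytokines, time in culture or the number of animals or cultures, so the p-values reflect the spread between samples that may be technical replicates. The unit is TPM, the part of a library's transcripts that comes from a gene after correction for length, scaled to a total of 1e+06. It keeps no read number, so the depth behind each value is unknown.

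Cells make cholesterol from acetyl-CoA through mevalonate, isoprenoid intermediates, squalene and lanosterol. When membrane sterol is scarce, the escort protein Scap carries the SREBP factors, encoded by Srebf1 and Srebf2, from the endoplasmic reticulum to the Golgi for cleavage, and the released domain switches on the genes of the pathway. Insig proteins hold Scap back when sterol is ample. Activated T cells use the pathway to build membranes as they grow, mevalonate metabolism is known to be needed for the suppressive function of Treg cells, and in macrophages signalling through the type I interferon receptor has been linked to a lower flux through cholesterol synthesis.

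Promoters are shown for 5 sterol pathway genes, because the SREBP factors are known to act next to NF-Y, a factor that binds CCAAT boxes. Whether these boxes bear on the levels in the libraries was not tested. RefSeq promoter windows of 300 bases (250 before and 50 after the start, GRCm38.p6) were found for 24 of the 31 genes, 30 windows in all. An NF-Y box, searched as CCAAT on both strands, lay in a window of 14 of the 15 mevalonate and sterol enzymes with a window, or 93.3%, against 43.6% of the 8918 tested genes with a window and 41.1% of all 27025 genes. For the 5 fatty acid genes with a window the count was 2. An Sp1 box, searched as GGGCGG on both strands, was found for 14 of the 15 enzymes and 66.2% of tested genes. The E-box CACGTG, which reads the same on both strands, was found for 3 of the 15 and 11.8% of tested genes. The core of the classical sterol regulatory element, searched as TCACNCCAC on both strands, lay in a window of 1 member, Hmgcs1, and of 1.47% of tested genes. These matches are descriptions of letters in a window, not of bound sites. In the stretches below, all upstream of the start and outside annotated exons, capitals mark the NF-Y boxes, which read ATTGG where they lie on the opposite strand, and in Hmgcs1 also the sterol element. Hmgcs1 (chr13:119690101-119690330, plus strand), Mvk (chr5:114444076-114444268, plus strand) and Nsdhl (chrX:72918412-72918520, plus strand) were highest in WT 1 among the WT libraries, like most enzymes of the pathway. Hsd17b7 (chr1:169969254-169969390, minus strand) and Sc5d (chr9:42264301-42264344, minus strand) are the enzymes whose libraries did not overlap between the genotypes as deposited.
Hmgcs1: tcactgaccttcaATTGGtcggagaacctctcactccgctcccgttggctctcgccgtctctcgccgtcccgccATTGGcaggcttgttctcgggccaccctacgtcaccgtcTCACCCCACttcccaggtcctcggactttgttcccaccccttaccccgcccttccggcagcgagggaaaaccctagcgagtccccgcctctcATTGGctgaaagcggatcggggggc
Mvk: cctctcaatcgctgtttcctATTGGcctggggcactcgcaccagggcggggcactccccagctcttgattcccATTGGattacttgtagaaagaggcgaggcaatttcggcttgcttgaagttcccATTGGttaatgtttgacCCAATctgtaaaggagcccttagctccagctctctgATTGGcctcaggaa
Nsdhl: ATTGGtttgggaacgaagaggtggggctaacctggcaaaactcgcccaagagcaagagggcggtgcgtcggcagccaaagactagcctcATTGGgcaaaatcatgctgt
Hsd17b7: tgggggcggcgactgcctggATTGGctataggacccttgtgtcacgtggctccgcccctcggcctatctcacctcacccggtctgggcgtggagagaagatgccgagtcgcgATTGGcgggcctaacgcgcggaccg
Sc5d: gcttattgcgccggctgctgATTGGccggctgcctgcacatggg

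Before the comparisons, 2 libraries stood apart from the others in the balance of their transcripts. WT 2 and Ifnar1-SA 1 had 3486 and 2619 TPM of Rps29, a short ribosomal protein transcript, against 8021 to 9981 TPM in the other libraries, and median-of-ratios factors of 1.13 and 1.15 against 0.890 to 1.003. The entry Rn4.5s was likewise low in them, at 3846 and 2978 TPM against 14249 to 20882 TPM. Mir6236, a far larger entry, was highest in them, at 118851 and 95484 TPM against 65232 to 87650 TPM. By the factors, the typical gene had a higher TPM in those 2 libraries, so each role is also given after median-of-ratios scaling. T cell markers were abundant, with 8 of 9 symbols in the table summing to 2736 to 3069 TPM across WT and 3060 to 3491 TPM across Ifnar1-SA. The 8 Treg markers summed to 3867 to 4697 TPM across WT and 4044 to 5019 TPM across Ifnar1-SA, most of it from Tnfrsf18. Foxp3, the defining factor, was at 0.276 to 0.697 TPM across WT and 0.746 to 1.82 TPM across Ifnar1-SA, low in every library for cells labelled as Treg cells. Ctla4, an inhibitory receptor of activated and Treg cells, was at 482 to 698 TPM across WT and 762 to 876 TPM across Ifnar1-SA (limma adjusted p = 0.9997). As deposited, both Foxp3 and Ctla4 were thus higher in every Ifnar1-SA library than in every WT library, and the other Treg markers overlapped. After division by the median-of-ratios factors, WT 1 lay above Ifnar1-SA 1 for both Foxp3 and Ctla4, so these overlapped too. Foxp3, with a mean under 1 TPM, was not tested, and its closest deposited values were 0.697 and 0.746 TPM. Of the T cell markers, Cd3d and Cd3g also lay higher without overlap as deposited. After division by the factors both overlapped, with Ifnar1-SA 1 below WT 1, and Cd2 lay higher without overlap instead. Over all genes tested, 1.97% lay higher without overlap as deposited and 4.38% after median-of-ratios scaling. Summed markers of other cells were low. The 8 B cell markers were at 9.22 to 20.7 TPM across WT and 10.4 to 14.0 TPM across Ifnar1-SA, the 10 macrophage and dendritic cell markers at 8.77 to 15.1 and 10.6 to 13.1 TPM, and the 8 CD8 T and NK cell markers at 19.9 to 24.0 and 20.5 to 30.4 TPM. The 8 neutrophil and mast cell markers did not overlap, at 7.93 to 11.8 TPM across WT and 17.7 to 23.0 TPM across Ifnar1-SA. Most of this came from Ly6g, at 6.46 to 6.55 TPM across WT and 14.2 to 21.4 TPM across Ifnar1-SA (limma adjusted p = 0.163). S100a9 overlapped, at 0.615 to 2.87 TPM across WT and 0.891 to 2.11 TPM across Ifnar1-SA. S100a8 was at 0 TPM in WT 1 and in all 3 Ifnar1-SA libraries, and its highest value was 0.504 TPM, in WT 2. The part of these markers in the results was not tested.

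None of the cholesterol and fatty acid genes passed the test between the genotypes, 0 of 31 with all libraries and 0 of 31 without WT 2 and Ifnar1-SA 1. All 31 had a mean of at least 1 TPM and entered the fit, in which log2(TPM + 1) values of 12141 genes were compared with limma at a Benjamini-Hochberg adjusted p of 0.05. Over all genes 0.0577% passed, 2 higher and 5 lower in Ifnar1-SA, or 1 higher and 6 lower after median-of-ratios scaling. Every member had an adjusted p of 0.9997, and 1 of them, Hsd17b7, had an unadjusted p under 0.05, a mark that 3.12% of all genes reached. The 95% interval of the difference in log2(TPM + 1) lay within 1 of 0 for 31 of 31 members and for 86.0% of all genes. On this scale the change of low genes is understated. With a pseudocount of 0.1 the interval of Elovl6 reached beyond 1, and leaving out any 1 library other than WT 3 took that of Elovl6 or Fasn beyond it. Without WT 2 and Ifnar1-SA 1 together that of Dhcr7 did so. Mean log2 values were higher in Ifnar1-SA for 19 members and lower for 12, beside 37.1% of all genes higher and 62.9% lower. After scaling by median of ratios, TMM or quantiles, 27 members kept the direction they had as deposited, 19 higher and 8 lower, and Srebf1, Srebf2, Sqle and Dhcr7 turned from lower to higher in at least 1 scaling, with scaled differences of at most 0.03. The median log2 difference was 0.09 for the members and −0.06 for all genes, and 0.14 and −0.0027 after median-of-ratios scaling. The members' median turned to −0.09 without Ifnar1-SA 1, −0.0078 without WT 3 and −0.10 without both WT 2 and Ifnar1-SA 1, a pair of exclusions chosen after seeing the data. The median of all genes in those fits was −0.15, −0.11 and −0.08, so the members lay above it without either single library and slightly below it without the pair. Without Ifnar1-SA 1, 11 members were higher and 20 lower.

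**Figure D1:**
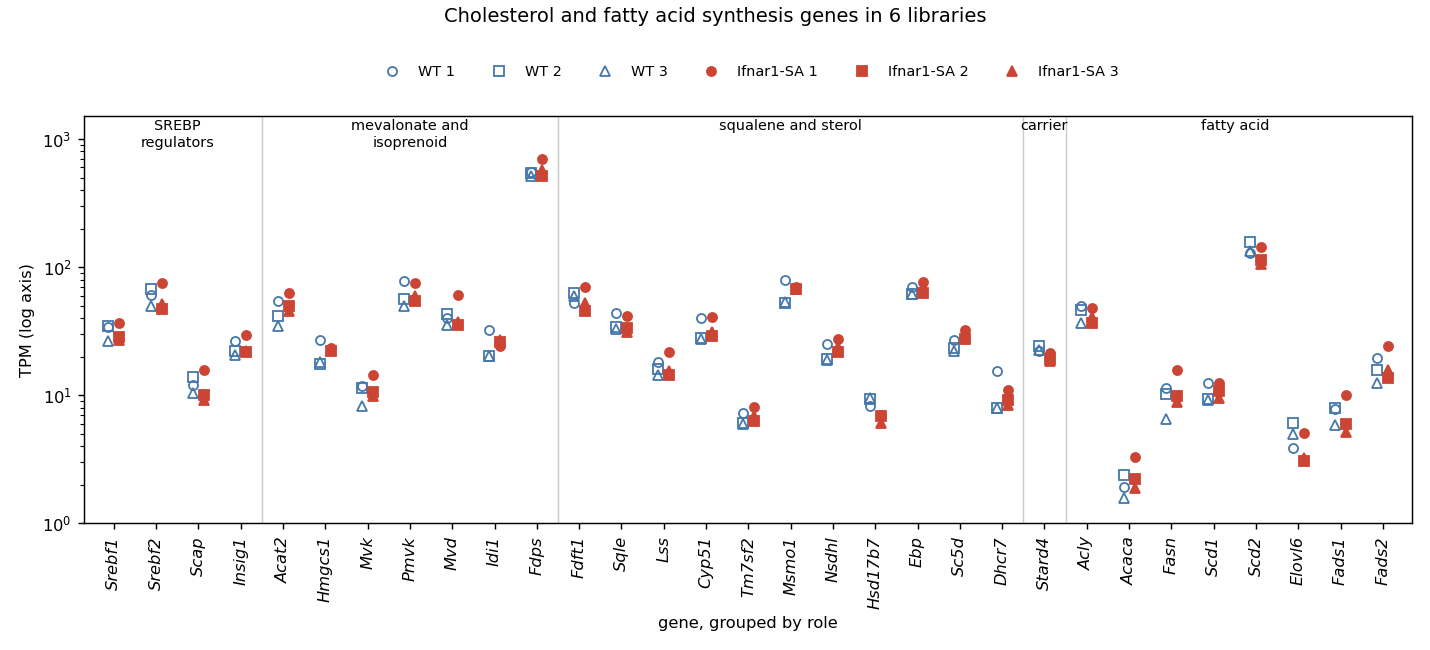
TPM of each gene on a log axis in the 3 WT libraries (open blue symbols) and the 3 Ifnar1-SA libraries (filled red symbols), grouped by role, with circles, squares and triangles for libraries 1, 2 and 3. Single values run from 1.59 TPM for Acaca to 694 TPM for Fdps, and the symbols of the genotypes overlap for all genes except Hsd17b7, Sc5d and Stard4.

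Of the SREBP regulators, 0 of 4 passed the test and the libraries of the genotypes overlapped for each. Srebf2, which mainly drives cholesterol genes (protein-coding, plus strand of GRCm38 chromosome 15, from 82147181 to 82205379), was at 60.9, 67.5 and 50.1 TPM across WT and 75.7, 47.2 and 51.6 TPM across Ifnar1-SA. The Ifnar1-SA libraries thus held both the highest and the lowest value, and the log2 difference came to −0.05 with a standard error of 0.22 (0.0092 after median-of-ratios scaling). Srebf1, whose products include the main driver of fatty acid genes, was at 33.9, 34.5 and 26.7 TPM across WT and 36.9, 28.6 and 27.04 TPM across Ifnar1-SA, a log2 difference of −0.04 with a standard error of 0.18 (0.02 after median-of-ratios scaling). Srebf2 had the higher TPM of this pair in each library. Scap, the escort protein, was at 12.0, 13.8 and 10.5 TPM across WT and 15.8, 10.03 and 9.23 TPM across Ifnar1-SA. Insig1, the retention protein and itself a classical SREBP target, was at 26.6, 22.3 and 20.7 TPM across WT and 29.8, 21.7 and 22.1 TPM across Ifnar1-SA. For Scap and Insig1 as for the SREBP genes, Ifnar1-SA 1 was the highest of its genotype.

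All 7 enzymes of the mevalonate and isoprenoid steps had a higher mean log2 value in Ifnar1-SA, by 0.04 to 0.28, and 0 passed the test. Without Ifnar1-SA 1 only 4 of the 7 were higher, with Mvk, Pmvk and Mvd lower, and without WT 3 it was 5 of 7, with Mvk and Pmvk lower. Fdps, which makes farnesyl diphosphate at the branch point to sterols and prenyl groups (protein-coding, minus strand of chromosome 3, from 89093588 to 89101959), had the highest level of the 31 genes. Its values were 554, 542 and 509.6 TPM across WT and 694, 513 and 571 TPM across Ifnar1-SA, with 1 of the Ifnar1-SA values inside the WT range. On the log2 scale the difference came to 0.14 with a standard error of 0.16, and 0.06 to 0.20 over the 3 scalings. Acat2, which joins acetyl-CoA units at the entry of the pathway, had the largest difference of the 7, with 54.1, 41.3 and 34.9 TPM across WT and 63.2, 49.5 and 45.6 TPM across Ifnar1-SA (0.28 with a standard error of 0.22). WT 1 lay above 2 of the 3 Ifnar1-SA libraries. Of the 31-base words in Acat2 transcripts 43.7% also occur in Acat3, so their reads can be shared between the genes. Hmgcs1, the HMG-CoA synthase whose promoter holds the sterol element shown above (protein-coding, plus strand of chromosome 13, from 119690379 to 119708260), was at 26.95, 17.6 and 18.02 TPM across WT and 23.4, 22.0 and 22.5 TPM across Ifnar1-SA. The 3 Ifnar1-SA values lay between WT 1 and the other WT libraries. Idi1, which converts isopentenyl diphosphate to its isomer, had the same arrangement, at 32.3, 20.4 and 20.3 TPM across WT and 24.3, 25.9 and 27.1 TPM across Ifnar1-SA. The mevalonate kinase Mvk was at 11.8, 11.5 and 8.20 TPM across WT and 14.4, 10.7 and 9.90 TPM across Ifnar1-SA. The next kinase, Pmvk, was at 77.8, 56.2 and 49.9 TPM and 74.6, 54.3 and 59.2 TPM. The decarboxylase Mvd was at 40.4, 42.7 and 35.3 TPM across WT and 60.1, 35.5 and 37.1 TPM across Ifnar1-SA, with a single high library in Ifnar1-SA. Without that library the log2 difference of Mvd was −0.11. Shared words also touch Fdps (27.9%, most with Gm43738) and Idi1 (18.8%, most with Gm13502). These shares are for the same strand. On the opposite strand 13.2% of Acat2 words occur in Tcp1, and 13.1% of Hmgcs1 words occur in other genes, most in Gm48342.

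**Figure D2:**
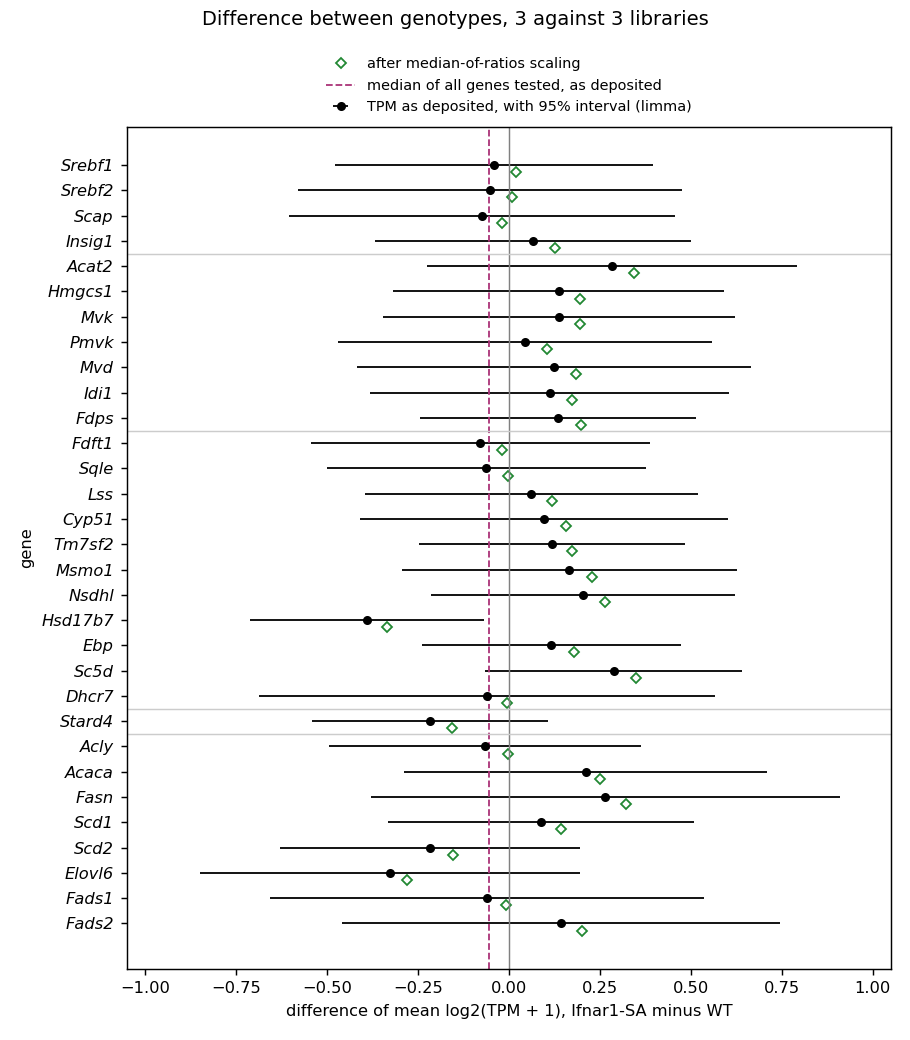
Difference of mean log2(TPM + 1) between Ifnar1-SA and WT for each gene (black points, with 95% limma intervals as bars), the same after median-of-ratios scaling (green diamonds), and the median of all genes as deposited (dashed line). Each interval lies within 1 of 0, and that of Hsd17b7 alone, from −0.71 to −0.07, does not include 0.

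Among the 11 enzymes from squalene to cholesterol 0 passed the test, and 2 had libraries without overlap, in opposite directions. Over all 31 genes, 1 member lay higher and 2 lower in every Ifnar1-SA library than in every WT library, beside 1.97% and 3.80% of all genes. Hsd17b7, the 3-keto reductase that helps remove the methyl groups of lanosterol (protein-coding, minus strand of chromosome 1, from 169949535 to 169969241), was at 8.30, 9.37 and 9.45 TPM across WT and 6.99, 6.87 and 6.11 TPM across Ifnar1-SA. On the log2 scale the difference came to −0.39 with a standard error of 0.14 (limma, unadjusted p = 0.0238 and adjusted p = 0.9997), and −0.45 to −0.33 over all alternatives, with a lowest adjusted p of 0.299 under array weights. Sc5d, the desaturase that sets a late ring double bond (protein-coding, minus strand of chromosome 9, from 42251595 to 42264256), was at 27.2, 23.4 and 22.3 TPM across WT and 32.03, 27.6 and 29.97 TPM across Ifnar1-SA. Its difference was 0.29 with a standard error of 0.15, and 0.21 to 0.37 over all alternatives, and the gap between the closest libraries of the genotypes was small beside the spread within WT. Nsdhl, which acts with Hsd17b7 in demethylation, pointed the other way, at 25.2, 19.3 and 18.7 TPM across WT and 27.6, 21.8 and 23.6 TPM across Ifnar1-SA (0.20 with a standard error of 0.18). Msmo1, the methylsterol oxidase of the same step, was at 79.4, 52.7 and 53.4 TPM across WT and 69.5, 67.2 and 68.0 TPM across Ifnar1-SA, where the coefficient of variation was 1.75% against 24.7% in WT as deposited and 12.0% against 27.4% after median-of-ratios scaling.

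The remaining sterol enzymes overlapped between the genotypes. Dhcr7, the reductase of the last step in 1 branch (protein-coding, plus strand of chromosome 7, from 143823145 to 143848410), was at 15.4, 7.89 and 7.95 TPM across WT and 11.1, 9.13 and 8.41 TPM across Ifnar1-SA. WT 1 stood far above every other library, and the log2 difference of −0.06 became 0.23 without WT 1 and 0.03 with quantile scaling. Sqle, the squalene epoxidase and a rate-limiting enzyme, was at 43.8, 34.01 and 32.9 TPM across WT and 41.6, 33.2 and 31.1 TPM across Ifnar1-SA (−0.06, and 0.0017 with TMM scaling). Fdft1, the squalene synthase, was at 52.4, 63.2 and 59.5 TPM across WT and 70.2, 45.6 and 52.05 TPM across Ifnar1-SA, the only enzyme of this group with its lowest WT value in WT 1 besides Hsd17b7. Lss, the lanosterol synthase, was at 18.2, 16.2 and 14.3 TPM and 21.6, 14.4 and 15.5 TPM, and Cyp51, the lanosterol demethylase, at 39.8, 28.04 and 27.3 TPM and 41.1, 29.1 and 31.2 TPM. In both genotypes library 1 was the highest. Tm7sf2, a sterol reductase, was at 7.24, 6.11 and 5.99 TPM and 8.11, 6.25 and 6.93 TPM. Of the 31-base words in Tm7sf2 transcripts 12.9% occur in other genes, most in Vps51. For Fdft1 14.3% occur in Gm6781, and 17.6% in Ctsb on the opposite strand. Ebp, the sterol isomerase, was at 70.03, 61.2 and 61.4 TPM across WT and 76.2, 62.7 and 70.5 TPM across Ifnar1-SA. Stard4, which carries cholesterol between membranes and is no enzyme, was lower in all 3 Ifnar1-SA libraries, at 22.3, 24.4 and 22.5 TPM across WT and 21.4, 19.3 and 18.5 TPM across Ifnar1-SA (log2 difference −0.22, standard error 0.14, limma adjusted p = 0.9997).

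The 8 genes of fatty acid synthesis split evenly, with 4 higher and 4 lower in mean log2 value, and 0 passed the test. The split depended on single libraries, with 2 higher and 6 lower without Ifnar1-SA 1 and 6 higher and 2 lower without Ifnar1-SA 2. Of the carbon supply and chain-building enzymes, Acly, which makes cytosolic acetyl-CoA from citrate, was at 49.3, 46.1 and 36.4 TPM across WT and 47.99, 36.9 and 40.8 TPM across Ifnar1-SA. Acaca, the acetyl-CoA carboxylase that commits carbon to fatty acids, was the lowest of the 31 genes, at 1.93, 2.38 and 1.59 TPM across WT and 3.29, 2.21 and 1.89 TPM across Ifnar1-SA. Fasn, the fatty acid synthase, was at 11.4, 10.2 and 6.58 TPM across WT and 15.9, 9.92 and 8.92 TPM across Ifnar1-SA, with the widest upper bound of the members (0.27, interval −0.38 to 0.91). Without Ifnar1-SA 1 the differences were 0.05 for Acaca and 0.03 for Fasn, and without WT 3 they were 0.12 and 0.05, from 0.21 and 0.27 with all libraries. Of the 31-base words in Acaca transcripts 33.4% occur in other genes, most of them in Gm5182. Among the desaturases, Scd2, the main stearoyl-CoA desaturase transcript here (protein-coding, plus strand of chromosome 19, from 44293674 to 44306864), was at 129, 157 and 134 TPM across WT and 143, 114 and 106 TPM across Ifnar1-SA. Its difference was −0.22 with a standard error of 0.17, and after median-of-ratios scaling the genotypes no longer overlapped, with WT between 129 and 142 and Ifnar1-SA between 119 and 125. The related Scd1 was at 12.4, 9.30 and 9.12 TPM across WT and 12.5, 10.8 and 9.46 TPM across Ifnar1-SA and lay below Scd2 in every library. Elovl6, which lengthens palmitate, was at 3.87, 6.04 and 4.99 TPM across WT and 5.04, 3.05 and 3.26 TPM across Ifnar1-SA (−0.33 with a standard error of 0.22). The polyunsaturated desaturases Fads1 and Fads2 both had their highest value in Ifnar1-SA 1. Fads1 was at 7.84, 7.98 and 5.81 TPM across WT and 10.1, 5.95 and 5.17 TPM across Ifnar1-SA, and Fads2 at 19.5, 15.7 and 12.6 TPM and 24.3, 13.7 and 15.9 TPM. After median-of-ratios scaling the members without overlap were Fdps, Sc5d and Acaca on the higher side and Hsd17b7, Stard4 and Scd2 on the lower side. These were 3 of 31 each, beside 4.38% and 4.57% of all genes. The closest scaled values of WT and Ifnar1-SA were 553 and 559 for Fdps, 27.1 and 27.9 for Sc5d and 2.11 and 2.12 for Acaca. They were 8.27 and 7.49 for Hsd17b7 and 21.7 and 21.0 for Stard4.

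Many of the sterol pathway enzymes ranked the libraries of 1 genotype alike. Of the 18 mevalonate and sterol enzymes, 15 had their highest WT value in WT 1, as had 32.2% of all genes tested. After median-of-ratios scaling 16 of 18 were highest in WT 1 (39.4% of all genes) and 14 of 18 were lowest in WT 2 (30.7% of all genes), against 4 of 18 lowest in WT 2 as deposited (12.6% of all genes). With quantile scaling the counts were 14 and 13 of 18. Relative to the mean of the 6 libraries, the scaled mean log2 value of these 18 genes was 0.17 in WT 1, −0.27 in WT 2 and −0.11 in WT 3, and 0.05, 0.04 and 0.12 in Ifnar1-SA 1, 2 and 3. The 3 Ifnar1-SA libraries thus lay inside the WT range. A high WT 1 was not particular to these enzymes. As deposited, it was the highest WT library for 11 of 18 further genes of SREBP control and sterol branches. For further fatty acid and glycerolipid genes it was 15 of 22, for cholesterol storage genes 3 of 19 and for fatty acid oxidation genes 7 of 16. The scaled means of the first 2 lists were 0.16 and 0.14 in WT 1, but −0.06 and −0.03 in WT 2. The scaled coefficient of variation was larger in WT than in Ifnar1-SA for 16 of the 18 enzymes, with medians of 16.9% and 7.99%, as it was for 61.4% of all genes with a value in both, with medians of 16.7% and 12.4%. As deposited this held for only 10 of the 18, with medians of 16.64% and 14.99%, beside 49.5% of all genes. The count therefore depends on scaling, although single enzymes such as Hmgcs1, at 25.3% against 3.09%, had the smaller Ifnar1-SA spread as deposited too. TMM and quantile scaling each gave 16 of 18. The scaled coefficient reached 43.4% in WT against 2.68% in Ifnar1-SA for Dhcr7, 18.9% against 2.10% for Sqle and 23.4% against 3.71% for Acat2, where the deposited values gave 41.3% against 14.4% for Dhcr7, 16.2% against 15.7% for Sqle and 22.6% against 17.5% for Acat2. With 3 libraries per genotype these spreads rest on single libraries, and no test was made of their difference. Of the fatty acid genes 5 of 8 were highest in WT 1 and 1 of 8 was lowest in WT 2 after scaling, and 6 of 8 had the larger coefficient of variation in WT.

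**Figure D3:**
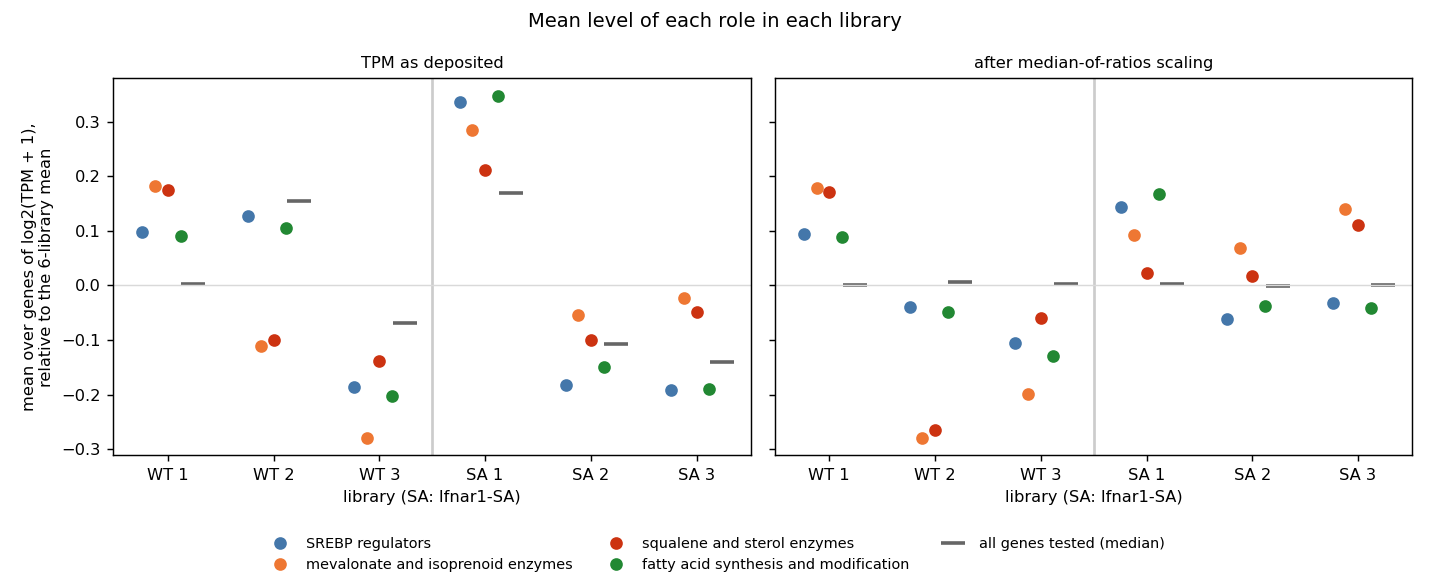
Mean over the genes of each role of log2(TPM + 1), relative to the mean of the 6 libraries, in each library as deposited (left) and after median-of-ratios scaling (right), with grey bars for the median of all genes. As deposited, the 4 roles drawn, which leave out the sterol carrier Stard4, are high in Ifnar1-SA 1, where the typical gene is also high, and after scaling the mevalonate and sterol roles run from 0.18 and 0.17 in WT 1 to −0.28 and −0.26 in WT 2.

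**Figure D4:**
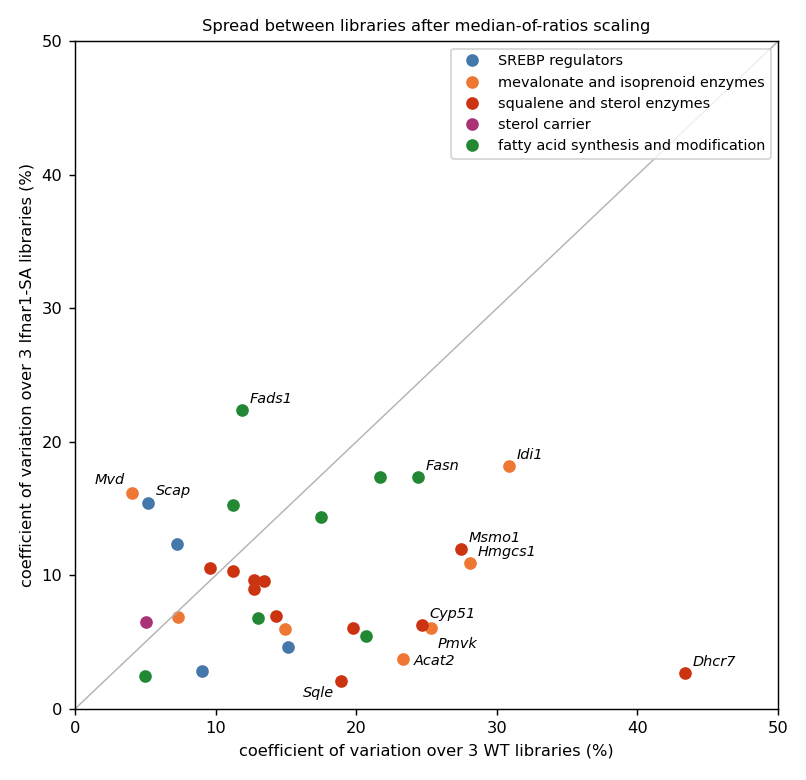
Coefficient of variation of each gene over the 3 WT libraries (horizontal axis, percent) and the 3 Ifnar1-SA libraries (vertical axis, percent) after median-of-ratios scaling, coloured by role, with a line of equal spread. For 24 of the 31 genes the point lies below the line after this scaling, and Dhcr7 lies farthest to the right at 43.4%.

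As deposited, 30 of the 31 genes had their highest Ifnar1-SA value in Ifnar1-SA 1, as had 72.4% of all genes. After scaling the count was 17 of 31 (39.9% of all genes), made up of 4 of 4 SREBP regulators, 6 of 8 fatty acid genes and 7 of 18 mevalonate and sterol enzymes. The scaled mean of the regulators was 0.14 in Ifnar1-SA 1 and −0.06 and −0.03 in the others, and that of the fatty acid genes 0.17, −0.04 and −0.04. Of the 18 mevalonate and sterol enzymes 9 were highest in Ifnar1-SA 3 after scaling, as were 0 of 4 regulators and 28.0% of all genes.

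Other genes of lipid metabolism, from pathway lists drawn up with earlier results of these data known, also had 0 members past the test. Of 18 further genes of SREBP control and sterol branches, 9 were higher and 9 lower in mean log2 value, with a median difference of −0.01. Insig2, the second retention protein, was at 20.8, 25.7 and 23.98 TPM across WT and 21.2, 17.3 and 17.1 TPM across Ifnar1-SA (−0.33 with a standard error of 0.16). The ubiquitin ligase gene Rnf139 (0.13), the dolichol pathway gene Nus1 (−0.11) and the prenyltransferase subunit gene Pggt1b (−0.10) followed by smallest p. Of 22 genes of cholesterol storage, efflux and the LXR receptors 19 were tested, 5 higher and 14 lower, with a median of −0.11. Over all genes tested 37.1% were higher and 62.9% lower, with a median of −0.06. After median-of-ratios scaling the mean of this list, relative to the 6 libraries, was −0.10, 0.11 and 0.07 across WT. Across Ifnar1-SA it was 0.05, −0.08 and −0.05. Smpdl3a, which encodes a phosphodiesterase related to acid sphingomyelinase, was at 3.64, 2.34 and 3.53 TPM across WT and 6.19, 5.25 and 6.10 TPM across Ifnar1-SA, without overlap (log2 difference 0.73, standard error 0.18, limma adjusted p = 0.901). Vldlr, a lipoprotein receptor gene, lay lower without overlap, at 4.18, 8.42 and 4.30 TPM across WT and 3.48, 3.30 and 1.45 TPM across Ifnar1-SA (log2 difference −0.82, standard error 0.33, limma adjusted p = 0.9997). The efflux transporter Abcg1 (−0.51) and the sterol carrier Stard5 (−0.42) overlapped between the genotypes. Of the 19 tested genes of this list 1 lay higher and 1 lower without overlap, beside 1.97% and 3.80% of all genes.

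Of 28 further genes of fatty acid and glycerolipid synthesis 22 were tested, with a median log2 difference of −0.11. In mean log2 value 9 were higher and 13 lower, beside 37.1% and 62.9% of all genes. After median-of-ratios scaling the mean of this list, relative to the 6 libraries, was 0.14, −0.03 and −0.10 across WT. Across Ifnar1-SA it was −0.03, 0.05 and −0.03. By smallest p came Lpin1, a phosphatidate phosphatase (−0.42), Dgat1, which completes triglycerides (0.42), the acyltransferase Gpam (−0.33) and Acsl4, which activates arachidonate (−0.20). Acsl4 was at 17.0, 14.04 and 14.6 TPM across WT and 13.1, 12.2 and 13.98 TPM across Ifnar1-SA, without overlap as deposited. It was the only 1 of the 22 to lie lower in this way as deposited, beside 3.80% of all genes. After division by the median-of-ratios factors its libraries overlapped, with Ifnar1-SA 3 above WT 2 and WT 3. Of 18 genes of fatty acid oxidation 16 were tested, 5 higher and 11 lower, with a median of −0.04, close to the −0.06 of all genes. Etfb, an electron carrier of that pathway, was at 743, 497 and 383 TPM across WT and 741, 717 and 581 TPM across Ifnar1-SA, with a standard deviation of 184 TPM in WT. Acadl (0.25), Etfdh (−0.17) and Eci2 (−0.24) followed.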

How the data were processed

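Messenger RNA was measured in 3 WT and 3 Ifnar1-SA libraries. The TPM values per gene were deposited by the authors as a single table, made with Salmon on GRCm38 (mm10), per the submitters' processing notes, and the sources used here give no version, annotation or read filter. Each of the 6 columns matched the title of 1 sample. Log2(TPM + 1), for genes averaging at least 1 TPM, was fitted with limma 3.58.1 (R 4.3.3), intensity trend, two-sided, Benjamini-Hochberg adjustment over 12141 genes, without a replicate block. The procedure was tested on simulated data with independent genes. These had no shift shared by the genes of a library, as seen in WT 2 and Ifnar1-SA 1, so that case was not tested. No count model was used, since TPM keeps no depth. The members and lists were chosen with earlier results of these data known. All 31 members are named, and from each pathway list the 4 genes of smallest p, since none passed; singled-out markers were chosen after their values were seen. Alternatives were pseudocounts of 0.1 and 0.5, other filters, 3 scalings (TMM without count weights), 3 variance models, a replicate block and leaving out libraries. Positions are from GENCODE M21, promoters from RefSeq (GRCm38.p6), and words of 31 bases were compared with GENCODE M21 transcripts. Python 3.11.15, pandas 2.3.3, numpy 2.4.6 and matplotlib 3.10.9 were used.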

Additional observations from a re-analysis of the deposited data

How the results depend on the processing

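No member passed in any of the 18 alternatives: 0 of 556 member differences (Acaca and Elovl6 drop out at a mean of at least 5 TPM) had a limma adjusted p under 0.05, and the lowest was 0.299, for Hsd17b7 under array weights, where 5 members had an unadjusted p under 0.05. The members' median log2 difference ranged from −0.10 to 0.18, and the genes called over the whole table from 0 to 28 against 7. Of the 31 members 14 had the same direction in every alternative run and 17 turned in at least 1, all of them with differences of at most 0.14 as deposited. Scaling gave Srebf1 0.019, 0.022 and 0.013 (median-of-ratios, TMM and quantile), Srebf2 0.0092 and 0.013 (median-of-ratios and TMM), Sqle 0.0017 with TMM and Dhcr7 0.027 with quantile scaling, and array weights gave Mvd −0.00011. Leaving out each library in turn gave log2 differences of −0.17 to 0.044 for Srebf1, −0.25 to 0.080 for Srebf2, −0.29 to 0.062 for Scap, −0.076 to 0.16 for Insig1, −0.014 to 0.24 for Mvk, −0.088 to 0.23 for Pmvk, −0.11 to 0.26 for Mvd, −0.25 to 0.054 for Fdft1, −0.18 to 0.064 for Sqle, −0.11 to 0.17 for Lss, −0.048 to 0.27 for Cyp51, −0.21 to 0.23 for Dhcr7, −0.19 to 0.022 for Acly, −0.0075 to 0.22 for Scd1, −0.31 to 0.11 for Fads1 and −0.085 to 0.31 for Fads2. Leaving out WT 2 and Ifnar1-SA 1 together, chosen after seeing the data, gave −0.10 for Insig1, −0.13 for Pmvk, −0.056 for Mvd, −0.11 for Lss, −0.12 for Cyp51, −0.00052 for Tm7sf2, −0.066 for Scd1 and −0.083 for Fads2. The cause was not tested. With the replicate number as a block, 0 members and 0 genes passed, with a members' median of 0.09. Over all genes, same-numbered libraries did not deviate together (correlations of −0.11, −0.11 and 0.15 across genes), so the numbers are not taken as pairs. With 3 libraries per genotype this cannot exclude pairing. As deposited, 20 of 31 members were highest in WT 1 among WT and 30 in Ifnar1-SA 1 among Ifnar1-SA, beside 32.2% and 72.4% of all genes. Depth is unknown, so counting error could not be given for low genes such as Acaca.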
